A study of Mus musculus with 16 samples.

Results

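The 10 genes described here are widely used markers of neural stem cells and radial glia: Sox2, Sox9, Nes, Vim, Fabp7, Prom1, Hopx, Egfr, Msi1 and Ptprz1. They were taken as a list by symbol from 49114 genes in the deposited tables. The list follows no rule on their measured values, but it was chosen with earlier results of these data known. Each gene's level is the sum of the estimated counts of its transcripts in a library. RNA came from 16 cultures of mouse neural progenitors grown from late embryonic (E18.5) cortex, with 4 biological replicates in each of 4 groups. KO DHT+ENZ cells had received a lentivirus carrying Cas9 and a guide RNA against the chromatin remodeller gene Chd1 (labelled knockout, KO), and were given 10 µM enzalutamide (ENZ, an androgen receptor antagonist) 30 min before 10 nM dihydrotestosterone (DHT, an androgen) for 24 h. KO DHT cells had the same virus and DHT without ENZ. KO DMSO cells had the same virus and the solvent. WT DMSO cells had the solvent and a control virus, which the sample protocols describe as Cas9 alone and the study's design text as a control guide. Every culture was a virus-treated pool selected with puromycin for 48 h and then expanded, so a KO culture can hold cells with different edits. All were kept in B27 medium with 20 ng/mL FGF-2, 20 ng/mL EGF and 2 µg/mL heparin. Embryos of 2 litters were used, without a label that ties a replicate to its litter. WT cells were not given DHT, and ENZ was not given by itself.

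Radial glia are the stem cells of the developing cortex: they line the ventricle, send a long fibre to the pial surface, and give rise to neurons and later to glia. When such cells are grown with EGF and FGF-2 they keep dividing as neural stem or progenitor cells, and the genes listed here are the ones most often stained or sorted for to recognise them. Sox2 and Sox9 are transcription factors of the stem cell state, Msi1 an RNA-binding protein, Nes and Vim intermediate filaments of the fibre, Fabp7 a lipid carrier, Egfr, Ptprz1 and Prom1 proteins of the cell surface, and Hopx an atypical homeodomain protein.

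Total estimated counts ranged from 31.8 to 36.9 M in 15 libraries and came to 20.2 M in WT DMSO replicate 1. That library also stood apart in several values given below. Some differences against WT DMSO of Ptprz1, Egfr, Prom1, Fabp7 and Msi1 are therefore also given without it. Levels of one gene across libraries are given as counts per M library counts after TMM scaling (CPM), and levels of different genes are compared as TPM, the deposited abundance per transcript length. RNA of the targeted gene Chd1 was at 68.2 ± 5.73 CPM in KO DHT+ENZ, 72.0 ± 3.87 in KO DHT, 67.3 ± 2.68 in KO DMSO and 66.8 ± 5.73 in WT DMSO (SD, n = 4 each). An edit by Cas9 need not lower the RNA of its target, so these levels do not check the labels. Against the labelled origin in cortex, some genes of dorsal cortical progenitors were low or near 0: Emx1 reached at most 0.139 CPM, Neurog2 0.418 CPM and Eomes 1.91 CPM in any library, and the Notch target Hes5 1.15 CPM. Others were not: Lhx2 was at 140.8 to 230.4 CPM, Pax6 at 23.5 to 31.9 CPM, Gli3 at 16.3 to 25.4 CPM and Emx2 at 15.5 to 21.8 CPM. The 5 intermediate progenitor markers summed to 53.7 to 90.3 CPM, mostly Insm1 (mean 37.5 CPM) and Btg2 (mean 32.4 CPM). The other genes of that list were Eomes and Neurog2, given above, and Neurog1, at most 0.651 CPM. Olig1 (942 to 1559 CPM) and Olig2 (646 to 1003 CPM), which mark ventral progenitors and the oligodendrocyte lineage, were high, while Sox10 (at most 0.511 CPM) and Pdgfra (1.49 to 7.76 CPM), markers of committed oligodendrocyte precursors, were low. Cspg4, the remaining gene of the oligodendrocyte precursor list, was not low, at 41.55 to 94.61 CPM. Of the neuron list 5 of 10 genes averaged at least 1 CPM and the list summed to 836 to 1373 CPM, mostly Map2 (mean 1052 CPM), while Dcx was at most 3.28 CPM. Of the astrocyte list 5 of 6 genes did, with a sum of 186 to 376 CPM that included Aldh1l1 (mean 146 CPM), while Gfap was at most 2.14 CPM. The microglia list summed to at most 5.13 CPM and the endothelial list to at most 6.69 CPM, with C1qa at 0 CPM in each library and Cldn5 at most 0.186 CPM.

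All 10 members were detected in every library and passed the filter on low counts, and their levels spanned a wide range. Fabp7 was the highest with 4346 ± 498 TPM (SD over 16 libraries), which placed it 13th among all genes, followed by Vim with 1839 ± 198 TPM and Nes with 579 ± 39.3 TPM. Ptprz1 (276 ± 57.3 TPM) and Sox2 (161 ± 12.6 TPM) formed the next step. Egfr (36.0 ± 5.21 TPM), Sox9 (32.9 ± 3.00 TPM) and Msi1 (30.9 ± 6.55 TPM) did not differ beyond their spread, and Hopx (7.85 ± 3.34 TPM) and Prom1 (2.01 ± 0.491 TPM) were the lowest. Hopx rested on 62 to 340 estimated counts per library and Prom1 on 58 to 236, so their values carry the widest error.

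Among the transcription factors, Sox2, which keeps neural progenitors undifferentiated, was at 182, 242, 240.4 and 192 CPM in KO DHT+ENZ, 218.9, 219.9, 219.5 and 198.9 CPM in KO DHT, 200.1, 221, 247 and 187 CPM in KO DMSO and 168, 204, 218 and 198 CPM in WT DMSO, listed by replicate number 1 to 4 in each group as in the sentences that follow. The groups overlapped, and replicates 2 and 3 were the higher ones in each, by a narrow margin in KO DHT. Sox9, needed for the setting up and upkeep of multipotent neural stem cells and later for glial fate, was at 84.9, 103, 94.1 and 80.4 CPM in KO DHT+ENZ, 91.1, 118, 109.9 and 87.5 CPM in KO DHT, 83.0, 102, 101 and 87.3 CPM in KO DMSO and 92.2, 93.9, 93.2 and 90.6 CPM in WT DMSO. Its WT DMSO libraries ran from 90.6 to 93.9 CPM, a narrower range than in each KO group. Msi1, an RNA-binding protein that represses translation of the Notch antagonist Numb, was at 37.4, 41.9, 36.4 and 41.9 CPM in KO DHT+ENZ, 34.3, 38.3, 35.3 and 42.0 CPM in KO DHT, 38.8, 35.6, 35.8 and 43.1 CPM in KO DMSO and 50.3, 36.8, 34.8 and 37.3 CPM in WT DMSO. WT DMSO replicate 1 held its highest value, and the other 15 libraries overlapped between groups.

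Nes, the intermediate filament protein nestin, was at 2182, 2623, 2587 and 2327 CPM in KO DHT+ENZ, 2477, 2529, 2865 and 2291 CPM in KO DHT, 2184, 2562, 2497 and 2339.6 CPM in KO DMSO and 2754, 2796, 2912 and 2237 CPM in WT DMSO. Its 3 highest values were KO DHT replicate 3 and WT DMSO replicates 2 and 3, and all groups overlapped. Vim, the intermediate filament vimentin of radial fibres, was at 2059, 2659, 2422 and 2247 CPM in KO DHT+ENZ, 1986, 2194, 2403 and 2034 CPM in KO DHT, 2064, 2543, 2579.7 and 2248 CPM in KO DMSO and 2302, 2838, 3207 and 1993 CPM in WT DMSO. WT DMSO replicates 2 and 3 were its highest libraries, and WT DMSO replicate 4 was among the lowest. Fabp7, the brain fatty acid-binding protein of radial glia, was at 1182, 1708, 2014 and 1339.6 CPM in KO DHT+ENZ, 1326, 1651, 1811 and 1383 CPM in KO DHT, 1381, 1866, 1983 and 1567 CPM in KO DMSO and 1273, 1469.6, 1904 and 1353 CPM in WT DMSO. In each group replicates 2 and 3 were above replicates 1 and 4.

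Of the surface proteins, Egfr, a receptor for the EGF in the medium, was at 221, 179, 186 and 207 CPM in KO DHT+ENZ, 194, 205, 206 and 209 CPM in KO DHT, 185, 177, 169 and 199.9 CPM in KO DMSO and 160.4, 193, 165 and 190.2 CPM in WT DMSO. The lowest KO DHT library stood just above the highest WT DMSO library. Ptprz1, a receptor tyrosine phosphatase that binds pleiotrophin and contactin, was at 1429, 1223, 1259 and 1444 CPM in KO DHT+ENZ, 1338, 1320.0, 1285 and 1503 CPM in KO DHT, 1351, 1093, 1213 and 1349.6 CPM in KO DMSO and 822, 1071, 958 and 1377 CPM in WT DMSO. WT DMSO replicate 1 was the lowest of the 16 and WT DMSO replicate 4 lay within the KO range. Prom1, the pentaspan membrane protein prominin-1 (CD133) of apical membranes, was at 2.40, 6.17, 4.64 and 3.48 CPM in KO DHT+ENZ, 3.41, 7.32, 6.14 and 4.47 CPM in KO DHT, 4.26, 4.90, 6.05 and 4.58 CPM in KO DMSO and 2.70, 3.66, 5.10 and 3.64 CPM in WT DMSO. Hopx, which marks quiescent stem cells of the mouse hippocampus and outer radial glia in human cortex, was at 2.79, 5.56, 7.23 and 3.10 CPM in KO DHT+ENZ, 3.12, 5.83, 6.47 and 3.30 CPM in KO DHT, 2.53, 6.12, 8.54 and 2.79 CPM in KO DMSO and 2.88, 3.69, 10.4 and 3.32 CPM in WT DMSO. In each group its replicates 2 and 3 were above 1 and 4. In WT DMSO the margin of replicate 2 (3.69 CPM) over replicate 4 (3.32 CPM) was narrow, and replicate 3 stood apart.

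**Figure D1:**
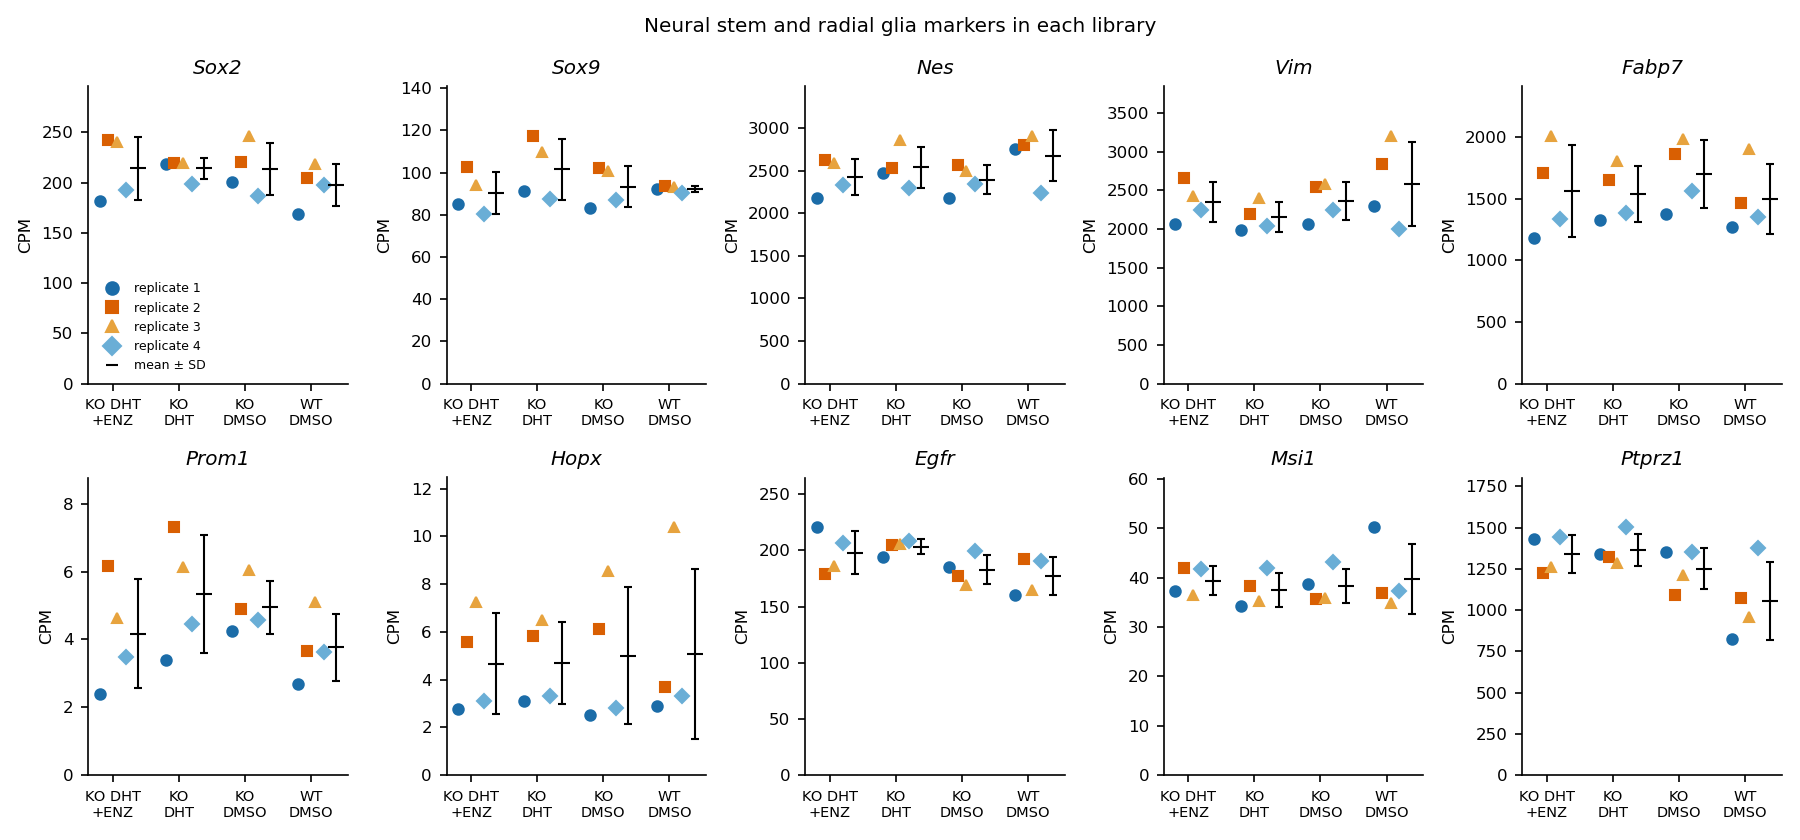
Level of each member (CPM, y axis from 0) in each of the 16 libraries, by group on the x axis, with the replicate number as colour and shape and the mean ± SD of 4 libraries as a black bar. The groups overlap for each member except Egfr in KO DHT (193.9 to 208.6 CPM) against WT DMSO (160.4 to 192.5 CPM), and Fabp7 and Hopx lie higher in replicates 2 and 3 of every group.

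Ptprz1 is read in several forms, and its junctions are shown because the forms give different proteins from one gene. In the GENCODE annotation of mouse build GRCm38 (plus strand), Ptprz1-201 (chr6:22875502-23052916) has 30 exons and 6936 coding bases and encodes the long receptor. Ptprz1-204 (chr6:22875777-23052617) leaves exon 12 after 1000 of its 3547 bases, skips the other 2547, and ends at the same stop codon, giving the short receptor. Ptprz1-206 (chr6:22875722-23004678) runs on past the end of exon 12 and its coding part stops 5 bases later, before the exons for the membrane-spanning and phosphatase parts, the layout of the secreted form known as phosphacan. Lower case is exon 12, and capitals mark what follows: exon 13 for the first and second, the read-through with its stop codon for the third.
Ptprz1-201: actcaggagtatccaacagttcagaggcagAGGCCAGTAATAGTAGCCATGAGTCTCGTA
Ptprz1-204: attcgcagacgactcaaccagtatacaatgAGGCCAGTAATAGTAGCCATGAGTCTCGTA
Ptprz1-206: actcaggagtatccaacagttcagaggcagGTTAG

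The 3 forms held 40.3%, 29.03% and 30.0% of Ptprz1 estimated counts on average over 16 libraries for Ptprz1-201, Ptprz1-204 and Ptprz1-206. Ptprz1-201 held 39.9, 40.3, 39.1 and 40.6% in KO DHT+ENZ, 39.7, 41.0, 41.0 and 41.2% in KO DHT, 42.4, 37.1, 37.6 and 40.4% in KO DMSO and 48.4, 38.2, 37.9 and 40.0% in WT DMSO. Ptprz1-206 held 30.9, 32.9, 35.3 and 27.5% in KO DHT+ENZ, 31.2, 31.3, 33.9 and 28.3% in KO DHT, 29.2, 31.3, 34.7 and 25.9% in KO DMSO and 20.8, 27.7, 30.6 and 28.3% in WT DMSO. WT DMSO replicate 1, the library lowest in total Ptprz1, was also the highest in the share of Ptprz1-201 and the lowest in that of Ptprz1-206. In those shares the other 15 libraries overlapped between groups. Ptprz1-204 held 25.09 to 31.05% in KO DHT+ENZ, 24.44 to 29.51% in KO DHT, 27.29 to 32.9% in KO DMSO and 30.06 to 33.47% in WT DMSO. KO DHT thus lay below WT DMSO without overlap in this share, which was not tested. The share of Ptprz1-201 differed by -1.74 points between KO DMSO and WT DMSO (exact permutation test, two-sided, p = 0.629; adjusted p = 0.971), and by 0.69 points without WT DMSO replicate 1.

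**Figure D2:**
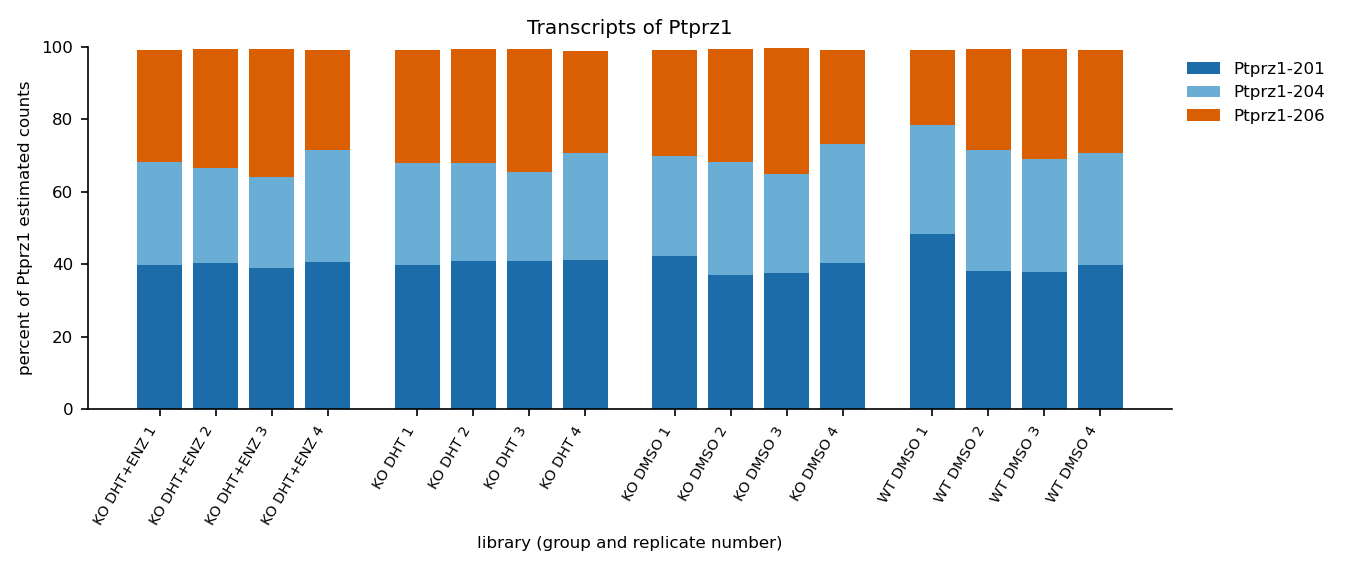
Share of Ptprz1 estimated counts (percent, stacked bars, y axis from 0) held by Ptprz1-201 (long receptor), Ptprz1-204 (short receptor) and Ptprz1-206 (form that ends after exon 12) in each of 16 libraries, grouped on the x axis. WT DMSO replicate 1 holds 48.4% Ptprz1-201 and 20.8% Ptprz1-206, and the other 15 libraries hold 37.1% to 42.4% and 25.9% to 35.3%.

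Egfr also has a form that ends early, shown here because it lacks the kinase. Egfr-201 (chr11:16752211-16918158, plus strand, GRCm38) has 28 exons and 3630 coding bases. Egfr-202 (chr11:16752203-16887923) runs past the end of exon 16 of Egfr-201 and meets a stop codon 43 bases further on, before the exons for the membrane-spanning and kinase parts, which leaves 1965 coding bases. Lower case is the end of exon 16, and capitals mark exon 17 in the first and the read-through with its stop codon in the second.
Egfr-201: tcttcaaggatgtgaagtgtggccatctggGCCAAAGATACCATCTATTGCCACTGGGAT
Egfr-202: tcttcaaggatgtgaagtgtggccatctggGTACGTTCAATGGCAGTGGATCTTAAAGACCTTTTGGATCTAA

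Egfr-202 held 8.26, 10.98, 9.26 and 8.76% of Egfr estimated counts in KO DHT+ENZ, 7.27, 10.6, 9.84 and 6.63% in KO DHT, 8.24, 10.1, 10.6 and 9.43% in KO DMSO and 17.9, 8.78, 9.26 and 7.55% in WT DMSO. Again WT DMSO replicate 1 stood apart, and the other 15 libraries lay at 6.63% to 10.98%. For the remaining members 1 transcript carried most of the counts: Sox2-201 and Sox9-201 100%, Nes-201 99.8%, Fabp7-201 99.0%, Vim-201 98.0%, Hopx-202 88.1% and Msi1-208 81.0% on average. Prom1-202 ran from 24.0% to 95.2%, with Prom1-203 second at 23.6% on average, at counts too low to divide transcripts closely. The largest transcript's share was tested for the 5 members with at least 2 transcripts over 5%, in 6 comparisons, and 0 of 30 tests passed (lowest exact permutation p = 0.0857, for Prom1-202 in KO DHT+ENZ with 51.5% ± 13.8 against 78.7% ± 13.98 in KO DHT, SD, n = 4 each; adjusted p = 0.971 for each of the 30). The lowest p that 4 against 4 libraries allow is 0.0286.

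Setting KO DMSO against WT DMSO asks whether targeting of Chd1 without added androgen alters these markers. RNA came from whole cultures, so fewer cells of a type and less RNA per cell cannot be told apart. Of 10 members 0 passed (edgeR quasi-likelihood test, adjusted p under 0.05 over 16969 genes; 0 at an unadjusted p under 0.05; 0 in DESeq2), where 0% of all genes passed. CPM of the groups overlapped for each of the 10, while 1.08% of all genes did not overlap. Ptprz1 had the largest difference relative to its error, with 1252 ± 124 CPM in KO DMSO and 1057 ± 236 CPM in WT DMSO (SD, n = 4 each), a log2 fold change of 0.24 (SE 0.13; adjusted p = 1, edgeR), and it was higher in 3 of 4 same-numbered pairs. Without WT DMSO replicate 1 that value was 0.14. Prom1 (0.39, SE 0.28) and Fabp7 (0.18, SE 0.17) were higher in 4 of 4 pairs without passing, and without WT DMSO replicate 1 they were at 0.26 and 0.11. With the replicate number as a block in the fit, Prom1 and Fabp7 were at 0.41 and 0.18 with all libraries. With the block and without WT DMSO replicate 1 they were at 0.42 and 0.21. Ptprz1 was at 0.25 and 0.13 in the same blocked fits. Nes had a value of -0.16 (SE 0.10) and Vim -0.13 (SE 0.14), each higher in 1 of 4 pairs. Sox2 (0.12), Sox9 (0.01), Egfr (0.05), Msi1 (-0.05) and Hopx (-0.03) had the remaining values, with an SE of 0.11, 0.11, 0.09, 0.11 and 0.46. Without WT DMSO replicate 1 the value of Msi1 was 0.08 (SE 0.09). The median over the 10 was 0.03, beside -0.0016 over all genes tested. Without the block the 95% confidence intervals were -0.12 to 0.36 for Sox2, -0.21 to 0.24 for Sox9, -0.14 to 0.23 for Egfr and -1.01 to 0.95 for Hopx. With the replicate block, which narrowed that of Hopx to -0.40 to 0.36, 4 members had an unadjusted p under 0.05 (Fabp7, Ptprz1, Prom1 and Nes), 0 passed after adjustment (lowest adjusted p = 0.539, edgeR) and 0% of all genes did.

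DHT was set against the solvent in KO cells to ask whether 24 h of androgen moved the markers. Of 10 members 0 passed (edgeR; 0 at an unadjusted p under 0.05; 0 in DESeq2), where 0% of all genes passed. CPM overlapped for each of the 10, and did not for 1.58% of all genes. Egfr, at 203 ± 6.48 CPM in KO DHT and 183 ± 13.1 CPM in KO DMSO (SD, n = 4 each), was higher in 4 of 4 pairs (log2 fold change 0.15, SE 0.09; adjusted p = 1, edgeR). Sox9 was also higher in 4 of 4 pairs (0.12, SE 0.11). Fabp7 (-0.14, SE 0.17) and Vim (-0.13, SE 0.14) were lower in 4 of 4. The intervals of these 4 genes included 0 without the block. With it, 1 member had an unadjusted p under 0.05, Fabp7 with an interval of -0.27 to -0.0015, and 0 passed after adjustment, as for 0% of all genes. Sox2 had a log2 fold change of 0.0043 (95% confidence interval -0.24 to 0.24). Transcript length moved with this comparison: over 9745 genes the rank correlation of fold change averaged over pairs with length was 0.65. In same-numbered pairs 1 to 4 the correlation was 0.097, 0.66, 0.53 and 0.41. That is a relation across genes and genes are not independent replicates. Of these 4 members the longer ones (Egfr, Sox9) had positive values and the shorter ones (Fabp7, Vim) negative values. After each library's trend on length was removed, with the replicate block, the log2 fold change was 0.01 for Egfr, 0.08 for Sox9, -0.03 for Fabp7 and -0.06 for Vim.

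Nes and Sox9 differed in order on the deposited TPM scale, which divides by effective length. Nes was at 624, 581, 636 and 596 TPM in the KO DHT libraries, above KO DMSO at 540.0, 553, 537 and 576 TPM, without overlap. Sox9 was at 34.5, 40.9, 36.9 and 34.1 TPM in KO DHT and 30.9, 33.5, 32.9 and 32.3 TPM in KO DMSO, again without overlap. With ENZ added to DHT, Nes was at 536, 538, 534 and 570.0 TPM and Sox9 at 31.3, 31.8, 29.3 and 29.5 TPM, both below all KO DHT libraries. These 2 were the only members whose TPM did not overlap in either comparison, against 1.53% of all genes for KO DHT with KO DMSO and 6.93% for KO DHT+ENZ with KO DHT, and the 2 comparisons share the KO DHT libraries. On the CPM scale, which the tests use, the same groups overlapped for both genes. The pattern was noticed after the values were seen. With an offset for average transcript length in the model, the log2 fold change of KO DHT over KO DMSO was 0.08 (SE 0.11) for Nes and 0.12 (SE 0.12) for Sox9, and that of KO DHT+ENZ over KO DHT was -0.05 (SE 0.11) and -0.16 (SE 0.12), with adjusted p of 1 for each (edgeR). That offset is not the removal of each library's length trend. With the trend removed and the replicate block, KO DHT over KO DMSO was -0.03 (SE 0.09) for Nes and 0.08 (SE 0.07) for Sox9. KO DHT+ENZ over KO DHT was then -0.0043 (SE 0.09) for Nes and -0.14 (SE 0.07) for Sox9.

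Adding the antagonist on top of androgen was read as KO DHT+ENZ over KO DHT. Of 10 members 0 passed (edgeR; 0 at an unadjusted p under 0.05; 0 in DESeq2), against 0.265% of all genes, and 0 with the replicate number as a block, against 3.48%. CPM overlapped for each member, and did not for 6.05% of all genes. Sox9, at 90.5 ± 9.92 CPM in KO DHT+ENZ and 102 ± 14.5 CPM in KO DHT (SD, n = 4 each), was lower in 4 of 4 pairs (log2 fold change -0.17, SE 0.11; adjusted p = 0.945, edgeR). Prom1 was lower in 4 of 4 pairs (-0.35, SE 0.28) and Vim higher in 4 of 4 (0.12, SE 0.14). Sox2, Fabp7, Hopx, Ptprz1 and Egfr lay between -0.04 and 0.02, Nes at -0.06 and Msi1 at 0.07. With the block Sox9 and Prom1 had an unadjusted p under 0.05 (adjusted p = 0.239 and 0.295, edgeR). Fold change averaged over pairs moved with transcript length here too (rank correlation -0.38 across 9745 genes). In same-numbered pairs 1 to 4 the correlation was 0.20, -0.59, -0.30 and -0.35, so pair 1 had the opposite sign. With the length trend removed and the block, Fabp7 had a log2 fold change of -0.14 (SE 0.04; adjusted p = 0.0994, edgeR), and 595 of 16969 genes but 0 members passed. The summed level of 6 cycling genes (Mki67, Top2a, Cenpf, Ccnb1, Pcna and Mcm2) was 1114 to 1397 CPM in KO DHT+ENZ and 1570 to 1970 CPM in KO DHT, without overlap. It was 1634 to 1852 CPM in KO DMSO and 1557 to 1737 CPM in WT DMSO, also above each KO DHT+ENZ library. What part this has in the members' values in the 3 comparisons of KO DHT+ENZ was not tested.

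Against KO DMSO, KO DHT+ENZ again had 0 of 10 members past the threshold (edgeR; 0 at an unadjusted p under 0.05; 0 in DESeq2), where 0.253% of all genes passed, and 0 with the block, where 2.94% did. CPM overlapped for each member, and did not for 6.1% of all genes. Egfr (0.12, SE 0.09) and Ptprz1 (0.10, SE 0.13) were higher in 4 of 4 pairs, and their intervals of -0.07 to 0.30 and -0.18 to 0.38 (without the block) included 0. Fabp7, at 1561 ± 374 CPM in KO DHT+ENZ and 1699 ± 275 CPM in KO DMSO (SD, n = 4 each), had a log2 fold change of -0.12 (SE 0.17) and was lower in 3 of 4 pairs. It was the 1 member with an unadjusted p under 0.05 in the blocked fit (adjusted p = 0.358, edgeR). It passed in 1 alternative, with the length trend removed and the replicate block (log2 fold change -0.17, SE 0.04; adjusted p = 0.0473, edgeR), where 610 of 16969 genes passed. Sox2, Nes and Vim lay at 0.0035, 0.02 and -0.0073.

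The 2 androgen-treated KO groups were also set against WT DMSO, from which they differ by both virus and treatment, and both comparisons share the WT libraries. In KO DHT 0 of 10 members passed (edgeR; 2 at an unadjusted p under 0.05, Ptprz1 and Egfr; 0 in DESeq2), where 0% of all genes passed. Ptprz1 was at 1361 ± 97.0 CPM in KO DHT and 1057 ± 236 CPM in WT DMSO (SD, n = 4 each), with a log2 fold change of 0.36 (SE 0.13, 95% confidence interval 0.09 to 0.64; adjusted p = 0.946, edgeR). Egfr, at 203 ± 6.48 CPM in KO DHT and 177 ± 16.8 CPM in WT DMSO, had a value of 0.20 (SE 0.09; adjusted p = 0.946, edgeR) and was the 1 member whose groups did not overlap, as for 1.47% of all genes. Without WT DMSO replicate 1 the values were 0.26 for Ptprz1 and 0.15 for Egfr. Vim was at 2154 ± 188 CPM in KO DHT and 2585 ± 542 CPM in WT DMSO (-0.26, SE 0.14). Prom1 averaged 5.33 CPM in KO DHT and 3.77 CPM in WT DMSO, the largest log2 fold change of the 10 at 0.49 (SE 0.28). Its value was 0.36 without WT DMSO replicate 1. With the replicate block it was 0.47 with all libraries and 0.48 without WT DMSO replicate 1. With the block 4 members had an unadjusted p under 0.05 (Ptprz1, Vim, Prom1 and Egfr). Of the 10, 0 passed after adjustment (lowest adjusted p = 0.179, edgeR), as for 0% of all genes. Same-numbered libraries did not meet the minimum set for pairing in this comparison. Fold change here also moved with transcript length (rank correlation 0.41 across 9745 genes). With the length trend removed and the replicate block the values were 0.27 for Ptprz1, 0.08 for Egfr and -0.21 for Vim.

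In KO DHT+ENZ 0 of 10 members passed against WT DMSO (edgeR; 1 at an unadjusted p under 0.05, Ptprz1; 0 in DESeq2), where 0.289% of all genes passed. CPM overlapped for each member, and did not for 4.84% of all genes. Ptprz1 was at 1339 ± 114 CPM in KO DHT+ENZ and 1057 ± 236 CPM in WT DMSO (SD, n = 4 each), with a log2 fold change of 0.34 (SE 0.13; adjusted p = 0.384, edgeR), and 0.24 without WT DMSO replicate 1. Egfr stood at 0.16 (SE 0.09), and Nes and Vim each at -0.14 (SE 0.10 and 0.14). Across all 6 comparisons, without the block, the widest 95% bound on the log2 scale was 0.36 for Sox2, 0.33 for Msi1, 0.38 for Nes, 0.39 for Sox9 and Egfr, 0.55 for Fabp7 and Vim, 0.64 for Ptprz1, 1.09 for Prom1 and 1.11 for Hopx.

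**Figure D3:**
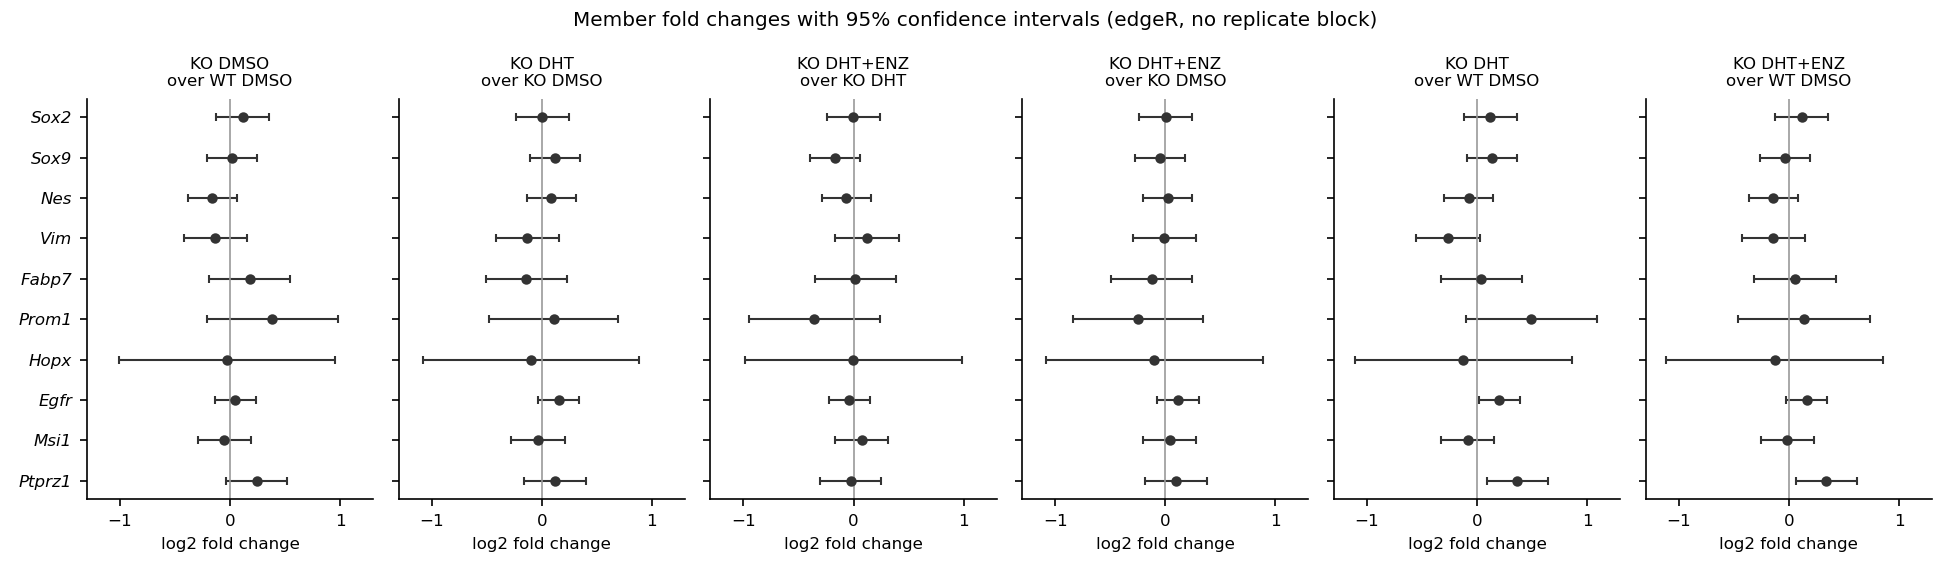
Log2 fold change of each member (x axis; y axis, gene) in 6 comparisons, each panel giving the first-named group over the second, as points with 95% confidence intervals from the edgeR model of 4 groups with 4 libraries each. The intervals include 0 except for Ptprz1 and Egfr in KO DHT over WT DMSO (0.36 and 0.20) and Ptprz1 in KO DHT+ENZ over WT DMSO (0.34), none of which passed after adjustment.

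The replicate number, which the labels give without saying what it stands for, carried more of the members' variance than the group did for most of them. Of the variance of log2 CPM, replicate number held 85.5% for Fabp7, 89.5% for Hopx and 53.7% to 62.7% for Sox2, Sox9, Nes, Vim and Prom1, against 0.0461% to 22.2% for group in these 7 genes. The median over all genes at 10 CPM or more was 46.4% for replicate number and 17.4% for group. For Ptprz1 (46.5%) and Egfr (42.0%) group held the larger part, with 25.6% and 18.7% for replicate number. In an F test over the 4 numbers, added after the data were seen, 7 of 10 members passed, against 44.1% of all genes (edgeR with replicate and group in the model): Fabp7 (adjusted p = 3.53e-05), Hopx (3.64e-05), Prom1 (0.00333), Vim (0.00439), Sox9 (0.00863), Sox2 (0.0143) and Nes (0.0255). Ptprz1 (0.0710), Msi1 (0.302) and Egfr (0.352) did not pass.

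The libraries of replicates 1 and 4 were below those of replicates 2 and 3 in each of the 4 groups for these 7 genes, a pattern that 12.5% of all genes showed. Some margins were narrow, as for Sox9 in WT DMSO (92.2 CPM in replicate 1, 93.2 CPM in replicate 3). Mean Hopx was 2.83 CPM in replicate 1, 5.30 in replicate 2, 8.16 in replicate 3 and 3.13 in replicate 4, and the ratio of replicates 2 and 3 over 1 and 4 was 2.26. The same ratio was 1.52 for Prom1, 1.33 for Fabp7, 1.23 for Vim, 1.17 for Sox2, 1.17 for Sox9 and 1.14 for Nes. It was below 1 for Egfr (0.945), Msi1 (0.908) and Ptprz1 (0.888). Transcript length moved with this pattern: across 9745 genes the rank correlation of the log2 ratio with length was -0.51, and the median ratio was 1.23 for 676 genes under 1000 bases, 1.12 for 4944 genes of 1000 to 3000 bases, 0.991 for 3384 genes of 3000 to 6000 bases and 0.863 for 741 longer genes. Those medians come from mean log2 CPM of genes at 10 CPM or more, and the members' ratios from mean CPM. Fabp7 (805 bases) and Hopx (1125 bases) are the shortest members and Egfr (7399 bases) and Ptprz1 (6407 bases) the longest. Msi1 (2001 bases) was below and Sox9 (4135 bases) and Nes (6069 bases) above the median of their length. With each library's length trend removed 7 members passed, 5 of them the same, with Egfr and Msi1 in and Sox2 and Vim out, and 6279 of 16969 genes did. With replicates 1 and 4 alone 0 members and 1 of 17683 genes passed, and with 2 and 3 alone 0 members and 492 of 16251 genes, a division drawn from the pattern itself. Whether the number marks litter, embryo or handling was not tested.

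**Figure D4:**
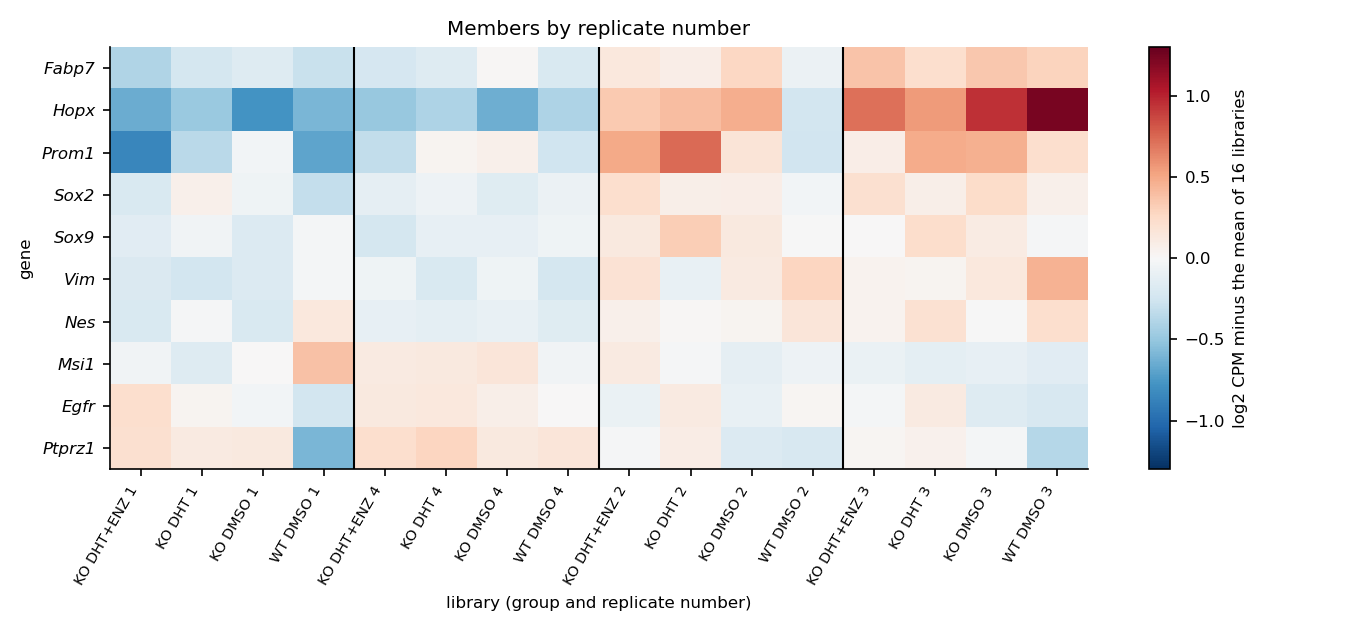
Log2 CPM of each member (rows) in each library (columns, ordered by replicate number 1, 4, 2, 3 and separated by lines), as the difference from the gene's mean over 16 libraries (red above, blue below). Fabp7 and Hopx are below their mean in replicate 1 and mostly above it in replicates 2 and 3, and Ptprz1 is far below its mean in WT DMSO replicate 1 (822 CPM).

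**Figure D5:**
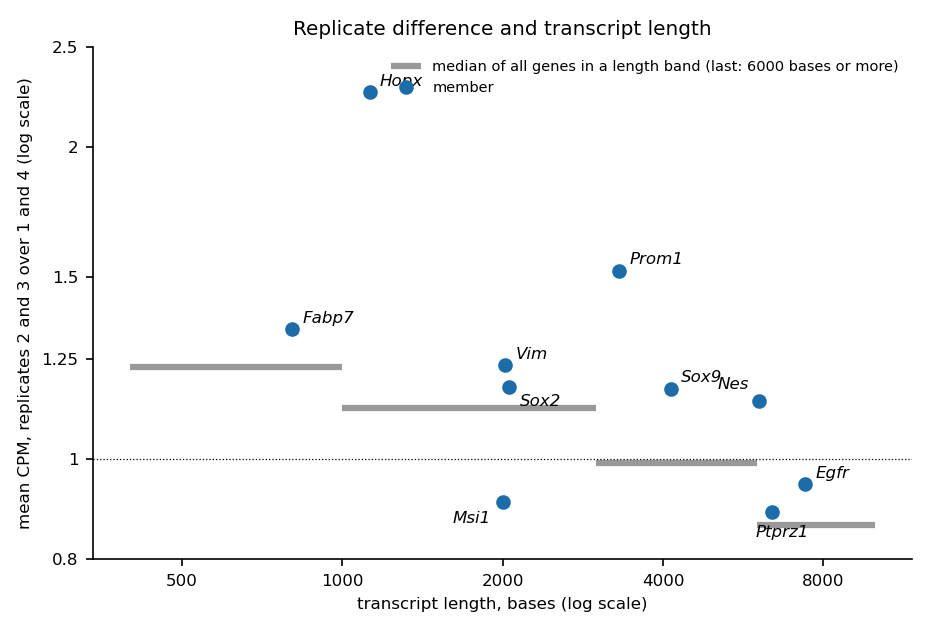
Ratio of replicates 2 and 3 over replicates 1 and 4 (y axis, log scale) against transcript length in bases (x axis, log scale). Points are the 10 members, as ratios of mean CPM. Grey lines are the median of all genes at 10 CPM or more in 4 length bands, as ratios taken from mean log2 CPM. Hopx (2.26) and Prom1 (1.52) lie well above the median of genes of their length and Msi1 (0.908) below it. Hopx and Prom1 average under 10 CPM and are not among the genes of the grey lines.

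Between members, the pattern over the 16 libraries split along the same line. Pearson's r of log2 CPM was 0.91 for Fabp7 with Hopx, 0.81 for Fabp7 with Sox2, 0.79 for Fabp7 with Prom1 and 0.78 for Nes with Vim. Egfr with Ptprz1 gave 0.81, and Nes with Ptprz1 -0.74. These are descriptions over 16 libraries that share replicate numbers and length trends. The genes most like each member, by the same r among 9513 genes, were Mesd (0.95) and Tomm22 (0.94) for Hopx, Tmem176b (0.95) and Morf4l1 (0.94) for Fabp7, Rbx1 (0.93) and Rab12 (0.93) for Sox2, and Cacng4 (0.94) and Nrxn2 (0.92) for Sox9. For Nes they were Cdr2l (0.94) and Slc12a4 (0.92), for Vim Adsl (0.95) and Pef1 (0.95), and for Prom1 Pcsk5 (0.92) and Ntrk2 (0.89). Ptprz1 was closest to Dclk1 (0.96) and Tnks2 (0.96), Egfr to Aff4 (0.93) and Ppp2r3a (0.92), and Msi1 to Tmem143 (0.91) and Fbln2 (0.88).

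A further 50 genes of neural stem cells and radial glia, chosen from general knowledge with earlier results of these data known, were read beside the members, and 48 of them were tested. Without the block 0 passed in each of the 6 comparisons (edgeR). The median log2 fold change was 0.01 in KO DMSO over WT DMSO and -0.02 in KO DHT over KO DMSO. Tnc, the matrix protein tenascin-C of the stem cell niche, was at 1744 ± 185 CPM in KO DMSO and 2288 ± 362 CPM in WT DMSO (SD over 4 libraries), lower in 4 of 4 pairs with a log2 fold change of -0.39 (SE 0.12) and an adjusted p of 1 in edgeR, with Hbegf, a ligand of Egfr, next (-0.33, SE 0.14). On the other side Ttyh1 (0.24, SE 0.12) and the gap junction gene Gja1 (0.18, SE 0.10) came nearest. For KO DHT over KO DMSO the nearest were Fam107a (0.75, SE 0.33), Msi2 (0.23, SE 0.12), the cortical transcription factor gene Lhx2 (-0.17, SE 0.10) and Pea15a (-0.14, SE 0.12). None of these 8 genes passed.

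With ENZ added to DHT, Gli3, the repressor of Hedgehog targets in dorsal forebrain, was at 19.1 ± 2.42 CPM in KO DHT+ENZ and 24.3 ± 1.11 CPM in KO DHT (SD, n = 4 each), lower in 4 of 4 pairs, and it was the 1 gene of the 48 that fell with the replicate block (log2 fold change -0.35, SE 0.09; adjusted p = 0.0467, edgeR), where 3.48% of all genes passed in either direction, while it did not pass without it (-0.34, SE 0.11; adjusted p = 0.325, edgeR). With the block and 1 library left out it passed in 3 of 16 fits, those without WT DMSO replicate 1, WT DMSO replicate 2 or KO DHT+ENZ replicate 1, and the call was lost without any 1 of the other 13 libraries. With the block Gli3 also passed in DESeq2, with RLE factors, with the length trend removed and in replicates 2 and 3 alone. It did not pass with the block and no low-count filter. Fam107a (-0.83, SE 0.34), Hbegf (0.42, SE 0.14) and Tnc (0.30, SE 0.12) came next and did not pass. Hbegf was at 69.3 ± 2.92 CPM in KO DHT+ENZ, 51.8 ± 2.28 CPM in KO DHT and 53.6 ± 3.94 CPM in KO DMSO, and Tnc at 2146 ± 241 CPM in KO DHT+ENZ and 1744 ± 115 CPM in KO DHT. For KO DHT+ENZ over KO DMSO the nearest were Hbegf (0.37, SE 0.14), Tnc (0.30, SE 0.12), Gli3 (-0.23, SE 0.11) and Sdc3 (-0.13, SE 0.07). Fam107a was at 1.298 ± 0.434 CPM in KO DHT and 0.585 ± 0.168 CPM in WT DMSO (SD, n = 4 each), a log2 fold change of 1.155 (SE 0.34), with Lifr (0.34, SE 0.16), Lhx2 (-0.39, SE 0.10) and Tnc (-0.39, SE 0.12) next in that comparison. In KO DHT+ENZ over WT DMSO the nearest were Ttyh1 (0.28, SE 0.12), Itga6 (0.21, SE 0.09), Sox3, a relative of Sox2 (-0.48, SE 0.17), and Lhx2 (-0.28, SE 0.10). None of these passed without the block in edgeR. Ptn, the pleiotrophin that binds Ptprz1, was among the most abundant of the list at 1537 to 2418 CPM, while the partner Cntn1 was at 7.20 to 14.8 CPM.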

How the data were processed

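RNA of 16 mouse neural progenitor cultures, 4 in each of 4 groups, was sequenced as polyA libraries with paired 150 bp reads, per the labels' protocols. Per the submitters' processing notes the authors used kallisto and the build GRCm39, with versions not given in the sources used here. Per the file headers, the deposited estimated counts (expected counts) are per transcript and carry no scaling between libraries. The deposited TPM values, per the file headers, are kallisto's abundances divided by effective length and scaled to a fixed sum in each library.

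Of 146190 transcripts, 134953 were matched by identifier to GENCODE M21 (build GRCm38), which held 98.84% to 99.11% of counts. That annotation gave gene names, and its coordinates and transcript sequences are those printed. Each gene's estimated counts were added up over its transcripts and rounded to whole numbers. The test was edgeR 4.0.16 (R 4.3.3; quasi-likelihood, TMM, filterByExpr, all 16 libraries, Benjamini-Hochberg over 16969 genes). SE is the absolute log2 fold change over the square root of F. Alternatives used DESeq2 1.42.0, a replicate block and others. Correlations used log2 CPM with a prior count of 2.

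Groups and replicate numbers come from the sample titles. Same-numbered libraries deviated together (r = 0.155 to 0.791 across 9745 genes) in the 4 comparisons other than KO DHT and KO DHT+ENZ against WT DMSO. In those the lowest r was -0.0107 and 0.077, both with WT DMSO replicate 1. The numbers thus met the minimum set for pairing in the first 4 comparisons. That minimum was not set against libraries of different number. Each replicate 1 library was closest to a replicate 4 library of another group (r = 0.329 to 0.795). The minimum therefore cannot tell pairing by number from the split of replicates 1 and 4 against 2 and 3. The tests given are from the fit without the block, as planned, and the blocked fit is given beside them in the 4 comparisons that met the minimum. Where the blocked fit is given for the other comparisons, the minimum was not met. P-values set a group difference against the spread between cultures of a group, which without the block includes the differences between replicate numbers. The labels do not show whether the cultures are independent of litter.

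The members and gene lists were chosen with earlier results of these data known. All 10 members are named. Of the other genes those that passed with or without the block are named, and otherwise the 2 smallest p in each direction. On simulated counts for KO DHT+ENZ against KO DHT (16594 genes), 91% of 2-fold and 7% of 1.5-fold changes were recovered without the block, and 100% and 85% with it. Of the genes called with the block, 5.61% were false. The simulated counts gave same-numbered libraries a shared effect, so the gain from the block was built in. Changed genes were drawn above a level that Hopx (mean 4.85 CPM) and Prom1 (mean 4.56 CPM) do not reach, so these values do not cover them.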

Additional observations from a re-analysis of the deposited data

Results flagged for a closer look

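Values of 1 library that stood apart from the other 3 of its group by Dixon's 95% criterion were found in 6 of 60 groups tested, and chance gives about 1 in 20. For Sox2, KO DHT replicate 4 was at 198.9 CPM, below the others at 218.9 to 219.9 CPM. For Hopx, WT DMSO replicate 3 was at 10.39 CPM, above the others at 2.88 to 3.69 CPM. For Msi1, WT DMSO replicate 1 was at 50.28 CPM, above the others at 34.8 to 37.3 CPM. As shares of the gene's estimated counts, Hopx-202 was at 83.04% in KO DHT+ENZ replicate 2 (others 88.9% to 89.6%), Egfr-201 at 80.85% in WT DMSO replicate 1 (others 90.5% to 91.95%) and Ptprz1-201 at 39.73% in KO DHT replicate 1 (others 41.02% to 41.2%).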

How the results depend on the processing

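No member passed in any comparison with the replicate block alone, with DESeq2 alone, with RLE factors, or in a fit of 2 groups. The block moved the count over all genes to 590 (KO DHT+ENZ over KO DHT), 499 (KO DHT+ENZ over KO DMSO) and 777 (KO DHT+ENZ over WT DMSO), against 45, 43 and 49 without it, 211, 180 and 313 in DESeq2 and 12, 10 and 14 with the average transcript length offset. In DESeq2 with the block Lhx2 and Sox3 passed in both androgen-treated KO groups against WT DMSO. Tnc also passed there in KO DHT, and Itga6 and Slc1a3 in KO DHT+ENZ. In KO DHT+ENZ over KO DHT the same fit called Cntn1, Gli3, Hbegf and Tnc, where 1030 of 16969 genes passed. In the blocked edgeR fit Ptprz1 in KO DHT+ENZ over WT DMSO had a log2 fold change of 0.35 (adjusted p = 0.0561, edgeR), and Sox3 fell there (-0.46, SE 0.10; adjusted p = 0.0193, edgeR), although those libraries did not meet the pairing minimum. For KO DHT+ENZ over KO DMSO, removal of the length trend with the block gave 1 member (Fabp7) and 610 of 16969 genes. For KO DHT over WT DMSO, DESeq2 with the block gave 1 (Ptprz1; 223 of 16969 genes), no low-count filter with the block 1 (Ptprz1; 146 of 33513 genes), and replicates 2 and 3 alone 2 (Ptprz1 and Vim; 499 of 16251 genes). For KO DHT+ENZ over WT DMSO, the same DESeq2 fit, the unfiltered fit and the length-trend fit each gave 1 (Ptprz1), with 1311 of 16969, 978 of 33513 and 1058 of 16969 genes. Leaving out 1 library gave 0 to 2 members for KO DHT over WT DMSO, 2 with the block and without WT DMSO replicate 4 (Ptprz1 0.47, Vim -0.34; 224 of 17309 genes), and 0 to 1 for KO DHT+ENZ over WT DMSO, Ptprz1 passing with the block at 0.22 without WT DMSO replicate 1 (1209 of 17228 genes) and at 0.44 without replicate 4 (889 of 17309 genes). By replicate number, 0 members passed with replicates 1 and 4 alone or 2 and 3 alone, and 6 to 9 with 1 library left out, when 6363 to 9352 genes passed. The cause of these changes was not tested, apart from fewer libraries.

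With replicates 1 and 4 alone, Sox9 in KO DHT over WT DMSO was -0.0153 on the log2 scale and Vim in KO DHT+ENZ over WT DMSO 0.0237, against 0.13 and -0.14 with all libraries. Of 2640 alternative values of the 60 member fold changes, 214 changed sign, 2 of them where the value exceeded its SE, and 39 of the 60 are smaller than their SE. Transcript shares passed in 0 of 510 alternatives. Counts limit Hopx and Prom1 most.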
